A study of Homo sapiens with 6 samples.

Results

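ELF3, SPDEF, EHF and ELF5 are the 4 epithelial members of the ETS transcription factor family, and TLE3 occupancy at these genes was described with and without FOXA1 silencing in the breast cancer cell line MDA-MB-453. The data are chromatin immunoprecipitation sequencing (ChIP-seq) of TLE3 in 2 libraries with transient FOXA1 silencing (siFOXA1 1 and 2) and in 2 control libraries labelled siNS (siNS 1 and 2), an abbreviation that the labels do not spell out. Peaks on hg38 were listed for each library separately. The comparison asks whether TLE3 needs FOXA1 to bind. Peaks of the 4 lists that shared at least 1 bp were merged into 72272 regions. A region was assigned to one of the 4 genes where it lay inside the gene, or where that gene was the nearest protein-coding gene within 100 kb. This gave 47 regions, of which 8 belonged to ELF3, 16 to SPDEF, 19 to EHF and 4 to ELF5. The genes were chosen by the peaks assigned to them in these same 4 lists, so their counts and ranks are a description and carry no test. The labels of all 4 ChIP libraries name this 1 cell line. The lists hold no measure of the FOXA1 level, so the silencing was not checked, and no expression by which the cell type could be checked. The labels describe the libraries of a group as biological replicates.

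ETS factors bind DNA through a conserved winged helix-turn-helix domain, and this epithelial branch acts mainly in glandular and surface epithelia. ELF3 drives genes of epithelial differentiation, SPDEF is a factor of luminal and secretory cells of prostate, airway, gut and breast, and EHF is expressed across many epithelia. ELF5 directs the milk-producing alveolar fate of the mammary gland, as known from the mouse. TLE3 is a corepressor of the Groucho family that has no DNA-binding domain and is recruited by transcription factors, and FOXA1 is a forkhead pioneer factor that opens chromatin in luminal breast cells.

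The promoter windows of ELF3, SPDEF and EHF are shown because TLE3 peaks cover them in different libraries. Each window runs from 250 bases before to 50 bases after a RefSeq transcription start (GRCh38.p14) and is written 5′ to 3′ on the strand of the gene. The ELF3 window (chr1:202010337-202010636, plus strand) was overlapped by a peak of all 4 libraries. The SPDEF window (chr6:34556280-34556579, minus strand) was overlapped by a peak of neither siFOXA1 library and of both siNS libraries. The downstream of the 2 EHF windows (chr11:34632316-34632615, plus strand) was overlapped by siNS 2 alone. Capitals mark matches to the motifs searched, which are given further on.
ELF3: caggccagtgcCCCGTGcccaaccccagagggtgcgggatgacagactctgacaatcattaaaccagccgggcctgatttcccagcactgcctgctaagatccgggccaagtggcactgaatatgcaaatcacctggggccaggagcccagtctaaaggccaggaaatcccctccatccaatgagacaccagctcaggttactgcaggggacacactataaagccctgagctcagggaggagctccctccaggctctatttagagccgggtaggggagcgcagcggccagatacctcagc
SPDEF: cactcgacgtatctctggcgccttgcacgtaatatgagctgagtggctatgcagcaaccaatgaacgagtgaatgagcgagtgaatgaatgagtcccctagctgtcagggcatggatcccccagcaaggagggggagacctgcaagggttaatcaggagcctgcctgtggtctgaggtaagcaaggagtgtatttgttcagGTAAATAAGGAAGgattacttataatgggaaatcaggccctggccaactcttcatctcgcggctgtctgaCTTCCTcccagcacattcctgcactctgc
EHF: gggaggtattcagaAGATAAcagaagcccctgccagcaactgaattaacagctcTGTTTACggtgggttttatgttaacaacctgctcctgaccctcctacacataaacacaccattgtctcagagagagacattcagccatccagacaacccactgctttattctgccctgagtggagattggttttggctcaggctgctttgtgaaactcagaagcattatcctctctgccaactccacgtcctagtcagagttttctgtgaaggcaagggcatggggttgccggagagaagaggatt
The upstream EHF window and the ELF5 window were overlapped by no peak of any library.

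The siFOXA1 lists held 12249 and 13754 peaks on chromosomes 1 to 22, X and Y, against 45105 and 46586 in the siNS lists, and none gives a read count, so depth is unknown. The siNS libraries differed in what they shared with siFOXA1. Of 8205 siFOXA1 consensus regions (a peak of both siFOXA1 libraries), 32.7% had a peak of siNS 1 and 59.0% a peak of siNS 2.

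The 4 genes differed in how many TLE3 peaks they had after FOXA1 silencing. SPDEF, ELF3 and ELF5 had fewer peaks in both siFOXA1 libraries than in both siNS libraries, as did 66.4% of the 16102 protein-coding genes with any peak, while the groups overlapped at EHF. The siFOXA1 mean was 0.308 times the siNS mean at SPDEF, 0.786 times at ELF3, 0.40 times at ELF5 and 1.06 times at EHF, against 0.284 times over the whole lists. SPDEF was therefore close to the lists as a whole. SPDEF had 3 and 5 peaks in siFOXA1 1 and 2, against 13 and 13 in siNS 1 and 2. That is 4 ± 1.41 against 13 ± 0 peaks (mean ± SD, n = 2 each). ELF3 had 6 and 5 peaks in siFOXA1, against 7 and 7 in siNS, or 5.50 ± 0.707 against 7 ± 0 (SD, n = 2 each). EHF had 7 and 12 peaks in siFOXA1 1 and 2, against 4 and 14 in siNS 1 and 2. The spread between the siNS libraries at EHF was larger than the difference between the group means of 9.50 in siFOXA1 and 9 in siNS. ELF5 had 1 and 1 in siFOXA1, against 2 and 3 in siNS. Together the 4 genes held 17 and 23 siFOXA1 peaks, against 26 and 37 siNS peaks. With lists cut to equal length by score they held 17 and 20 in siFOXA1, against 16 and 21 in siNS. With 2 against 2 libraries an exact permutation test cannot give p below 0.333.

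**Figure D1:**
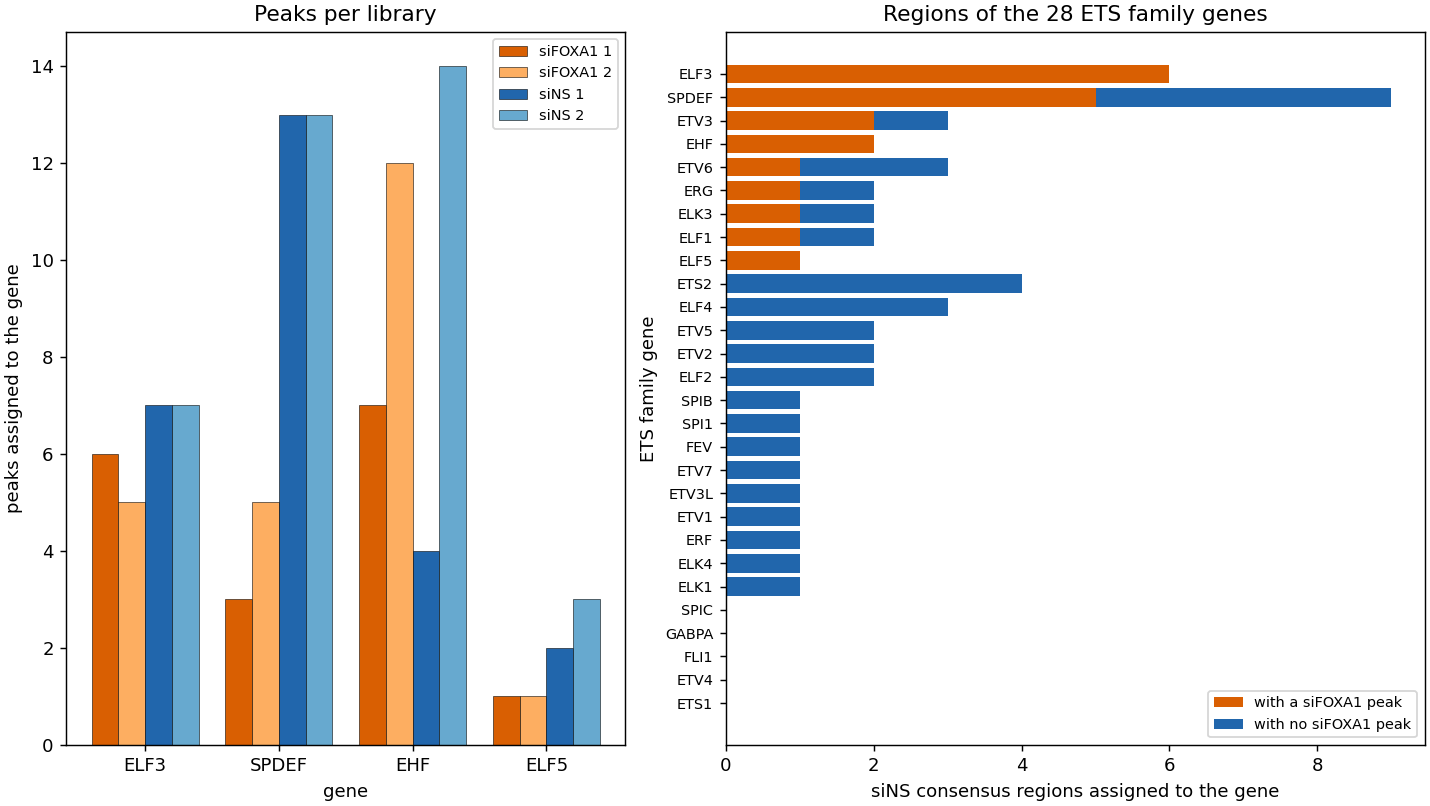
Left, peaks assigned to each of the 4 genes (bars from 0, 1 bar per library, siFOXA1 in orange and siNS in blue). Right, siNS consensus regions of the 28 ETS family genes, divided into those with a peak of at least 1 siFOXA1 library (orange) and those with none (blue). ELF3 shows 6 of 6 regions with a siFOXA1 peak and SPDEF 5 of 9.

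Of the 47 regions, 18 were siNS consensus regions (a peak of both siNS libraries), and 14 of these also held a peak of at least 1 siFOXA1 library, here called kept. Across the genome 17.0% of 24967 siNS consensus regions were kept. By gene, ELF3 kept 6 of 6, SPDEF 5 of 9, EHF 2 of 2 and ELF5 1 of 1. Peaks of both siFOXA1 libraries were found in 10 of the 18, against 10.4% of all siNS consensus regions. In the other direction, each of the 14 siFOXA1 consensus regions of the 4 genes held a siNS peak, against 60.0% of all siFOXA1 consensus regions. Of these 14, 10 had a peak of both siNS libraries, against 31.7% of all, and the other 4 of siNS 2 alone. Without siNS 2, 71.4% of the 14 held a siNS peak. Regions with a peak of all 4 libraries made up 10 of the 47, against 3.60% of all regions. Peaks of both siFOXA1 libraries and of neither siNS library were found in 0 of the 47 regions, against 4.54% of all regions. That number depends on the processing: with lists of equal length 11 of the 14 siFOXA1 consensus regions held a siNS peak, and 12 of 14 where peaks had to overlap by at least 50% of the shorter one. Regions with a peak of 1 siNS library alone made up 36.2% of the 47 and 47.1% of all regions.

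**Figure D2:**
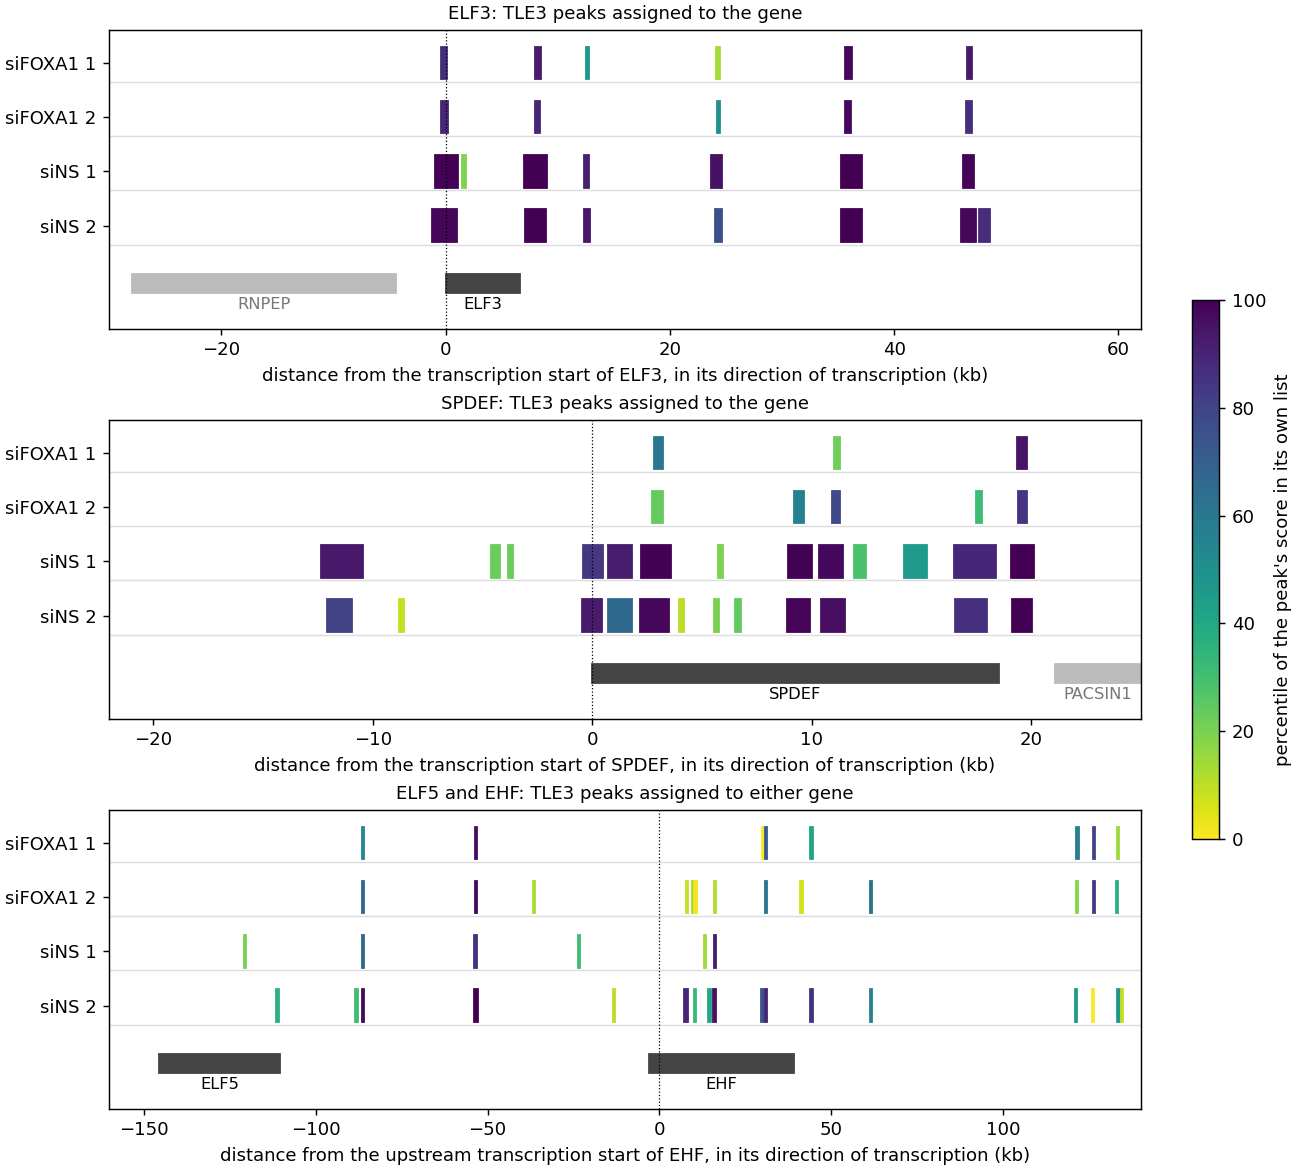
TLE3 peaks by library (rows, siFOXA1 above siNS) at ELF3, SPDEF and the neighbouring genes ELF5 and EHF, by distance in kb from a transcription start (dotted line) in the direction of transcription. Bars are the highest-scoring peak of each region, drawn to scale with a minimum width, and their colour is the percentile of the score in the library's own list. Only regions assigned to the genes in the dark grey boxes are drawn, and peaks assigned to adjacent genes are left out. Dark grey boxes are the genes, and light grey boxes are adjacent protein-coding genes. Each ELF3 region with bars of both siNS libraries also has a siFOXA1 bar, while the SPDEF start has siNS bars only.

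ELF3 (chromosome 1, 202010587 to 202017183, plus strand) was assigned a row of TLE3 regions from its promoter downstream. ELF3 has a further region 1843 bp upstream, with peaks of all 4 libraries, that fell to RNPEP by the rule. Its 6 siNS consensus regions spread over 48.5 kb, 1 of them at the transcription start and the other 5 beyond the 3′ end of the gene, in the 105734 bp before the next protein-coding gene, GPR37L1. Besides these, siNS 1 alone had a peak inside the gene (202012078 to 202012400) and siNS 2 alone a peak 40959 bp past it. ELF3 had 5 regions with peaks of all 4 libraries, and 0.0599% of protein-coding genes (12 of 20037) had at least 5. The minimum of 5 is ELF3's own number. With a minimum of 3, 113 genes passed, and with a minimum of 1, 1812.

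The region at the ELF3 start (202009331 to 202011665) also overlaps the antisense gene ELF3-AS1. Its peaks scored 25.5 and 31.5 in siFOXA1 1 and 2, at ranks 1620 and 1488 of their lists, and 284 and 174 in siNS 1 and 2, at ranks 172 and 603. The score is the authors' value per peak, its definition is not given in the sources used here, and ranks count from the highest score within 1 list. Ranks and percentiles place a peak in its own list and do not measure a change between lists of different length. Both siFOXA1 peaks, 540 and 640 bp wide, covered the start itself. Of the 5 promoter windows of the 4 genes, 1 was overlapped by a peak of siFOXA1 1 and 1 of siFOXA1 2, the ELF3 window in both cases, while siNS 1 overlapped 2 and siNS 2 overlapped 3. Over 22175 windows of protein-coding genes the shares were 1.23% in siFOXA1 1, 1.09% in siFOXA1 2, 55.2% in siNS 1 and 49.7% in siNS 2. Peaks of both siFOXA1 libraries overlapped 0.595% of these windows, and peaks of both siNS libraries 47.5%. Among the 10539 windows with both siNS libraries, 0.968% also had both siFOXA1 libraries.

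The region 399 bp past the 3′ end of ELF3 (202017582 to 202019602) ranked 920 of 12249 in siFOXA1 1 and 1496 of 13754 in siFOXA1 2, and 13 of 45105 in siNS 1 and 14 of 46586 in siNS 2. Its siFOXA1 peaks were 483 and 498 bp wide, and its siNS peaks 2021 and 1916 bp. The best ELF3 region of the siFOXA1 lists lay further on, 28666 bp past the gene (202045849 to 202047726). It ranked 273 and 296 in siFOXA1 1 and 2, and 46 and 108 in siNS 1 and 2. A region 39385 bp past the gene (202056568 to 202057862) ranked 835 and 1859 in siFOXA1, and 454 and 840 in siNS. The siFOXA1 peaks of these 4 regions lay at percentiles 86.5 to 97.8 of their lists, and the siNS peaks at 98.2 or above.

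The other 2 ELF3 regions had siFOXA1 peaks lower in their lists, and 1 was found in a single silenced library. At 17040 bp past the gene (202034223 to 202035251), the peaks stood at percentiles 13.3 and 50.1 in siFOXA1 1 and 2, and at 95.4 and 76.1 in siNS 1 and 2. At 5761 bp past it (202022944 to 202023456), a peak was called in siFOXA1 1 at percentile 46.6 and not in siFOXA1 2, with percentiles of 91.3 and 94.1 in siNS 1 and 2. Without siFOXA1 1, ELF3 therefore kept 5 of 6. Of 505 protein-coding genes with at least 6 siNS consensus regions, ELF3 was the only gene with all of them kept (0.198%). The minimum of 6 is ELF3's own number. With a minimum of 4, 5 of 1355 genes had all regions kept.

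SPDEF (chromosome 6, 34537802 to 34556329, minus strand) was covered by TLE3 peaks over much of its length in control cells. Peaks lay on 3.79% and 8.58% of the gene in siFOXA1 1 and 2, and on 48.5% and 40.8% in siNS 1 and 2. Coverage was also lower over the whole lists, at 4.68 and 5.41 Mb in siFOXA1 1 and 2, against 27.6 and 27.0 Mb in siNS 1 and 2. The 9 siNS consensus regions spread over 32.5 kb, from 10435 bp upstream of the gene to 554 bp past its 3′ end. The 5 kept regions lay in the body of the gene and at its 3′ end. The regions at the start and upstream of it had no siFOXA1 peak, nor did 2 in the gene.

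The strongest SPDEF region lay just past the 3′ end (34536183 to 34537248) and ranked 658 and 2088 in siFOXA1 1 and 2, and 129 and 188 in siNS 1 and 2. Its siFOXA1 peaks, 414 and 413 bp wide, were centred 6.75 bp from the siNS peaks on average. Another region with peaks of all 4 libraries lay in the gene 10.9 kb from the start (34544795 to 34545990). It stood at percentiles 22.2 and 77.4 in siFOXA1 1 and 2, and 97.7 and 96.8 in siNS. One more lay 2.87 kb from the start (34552754 to 34554159) and stood at percentiles 60.9 and 23.8 in siFOXA1, and 99.3 and 98.4 in siNS. In each of these 3 regions both siNS peaks stood higher in their lists than both siFOXA1 peaks did in theirs, as in 61.0% of the 2602 regions with peaks of all 4 libraries.

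A further 2 SPDEF regions were kept in siFOXA1 2 only. Inside the gene, 9.44 kb from the start (34546316 to 34547471), a siFOXA1 2 peak ranked 6002, where siNS 1 and 2 ranked 171 and 401. Next to the 3′ end (34537869 to 34539836) a siFOXA1 2 peak ranked 9395, where siNS 1 and 2 ranked 4852 and 6421. Without siFOXA1 2, SPDEF kept 33.3% of its 9 regions, against 55.6% with both libraries. Of the 135 genes with at least 9 siNS consensus regions, 20.0% kept 5 or more. Both minimums are SPDEF's own numbers, and 95 of the 135 genes had at least 10 regions.

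The 4 SPDEF regions with no siFOXA1 peak included the promoter. This is not particular to SPDEF, as 0.968% of the 10539 promoter windows with both siNS libraries also had both siFOXA1 libraries. The region over the transcription start (34555841 to 34556770) stood at percentiles 84.2 and 92.9 in siNS 1 and 2, and that 1.27 kb into the gene (34554491 to 34555625) at 92.4 and 66.1. A region 10435 bp upstream (34566764 to 34568663) stood at 93.5 and 80.6. The last lay in the gene (34550362 to 34550789) and was weak, at percentiles 19.6 and 20.1. The mean siNS percentile was 19.9 to 88.5 over these 4 regions, and 87.7 to 99.7 over the 5 kept regions. The other 7 of the 16 SPDEF regions had a peak of 1 siNS library alone, at percentiles of 45.7 or lower.

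**Figure D3:**
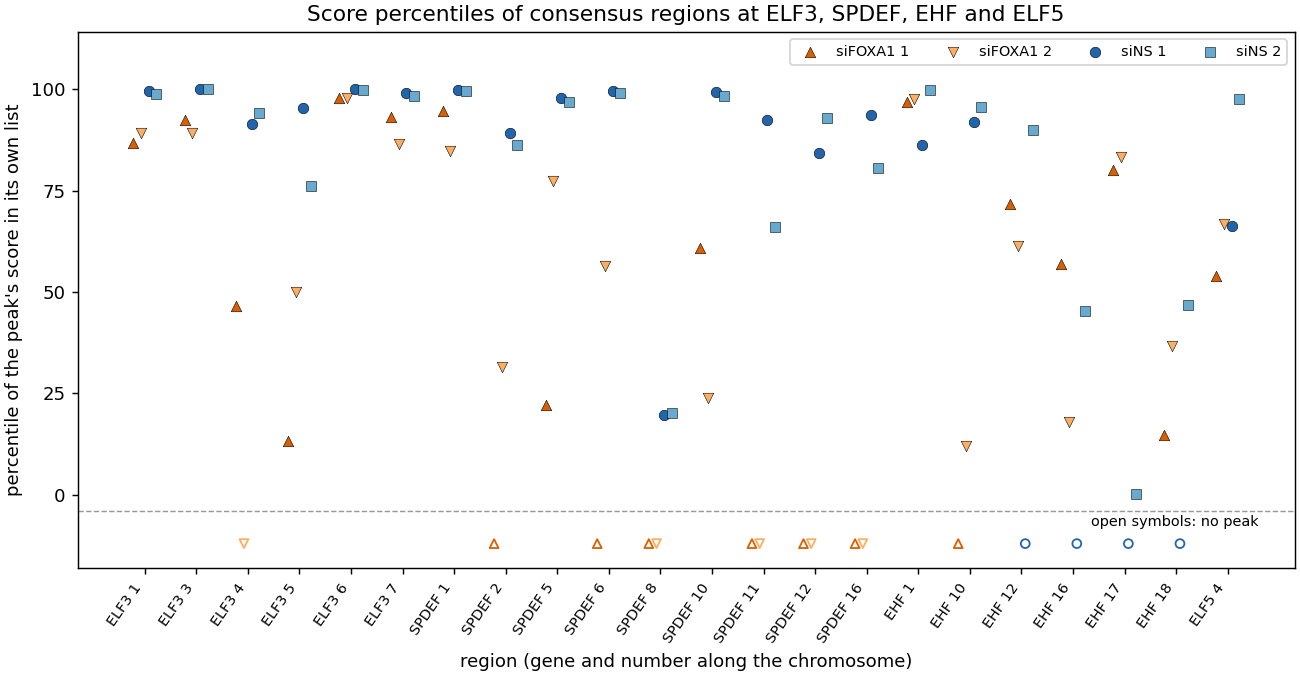
Percentile of the peak score within its own list for the 22 regions of the 4 genes that belong to a siFOXA1 or siNS consensus, with 1 symbol per library and regions numbered along the chromosome. Open symbols at the bottom mark libraries with no peak. All 4 SPDEF regions without siFOXA1 peaks and the 4 EHF regions without a siNS 1 peak can be seen there.

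EHF (chromosome 11, 34621093 to 34663288, plus strand) had the most regions of the 4 genes, and most were found in siNS 2 or siFOXA1 2 but not in siNS 1. In siFOXA1 2 it had 12 peaks, a number reached by 21 protein-coding genes in that list including EHF. It had 7 peaks in siFOXA1 1, 4 in siNS 1 and 14 in siNS 2. Of its regions 2 were siNS consensus regions and 5 siFOXA1 consensus regions. ELF3 also had 5 of the second kind, and 0.579% of protein-coding genes had at least 5, a minimum that is these genes' own number. Taking siNS 2 alone, without siNS 1, 11 of 14 regions were kept.

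In every list but siNS 1, the highest-scoring EHF region lay 49732 bp upstream of the gene (34570419 to 34571361), in the non-coding gene LINC02707. It stood at percentiles 96.7 and 97.5 in siFOXA1 1 and 2, and 86.2 and 99.8 in siNS 1 and 2, so both siFOXA1 values lay between the siNS values. The other siNS consensus region, inside the gene (34639871 to 34640723), had no peak in siFOXA1 1 and one at percentile 12.0 in siFOXA1 2, with percentiles of 91.9 and 95.5 in siNS 1 and 2. Without siFOXA1 2 EHF therefore kept 1 of 2, and without siNS 2 it kept 2 of 4.

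In 4 EHF regions both siFOXA1 libraries had a peak and siNS 2 was the only control library with one. Such regions made up 3.09% of all merged regions, and regions with siNS 1 in the place of siNS 2 made up 0.118%. One lay inside the gene (34654818 to 34655396), at percentiles 71.7 and 61.4 in siFOXA1 1 and 2 and 89.9 in siNS 2. The other 3 lay 81867 to 93778 bp past the gene, in the non-coding gene LOC102723568. In the middle one (34750058 to 34750649) the peaks stood at percentiles 80.0 and 83.3 in siFOXA1 1 and 2, and at 0.195 in siNS 2, close to the bottom of that list. The other two stood at percentiles 14.8 to 57.0 in siFOXA1 and 45.4 and 46.7 in siNS 2. A further 5 EHF regions had 1 siFOXA1 and 1 siNS library, and 3 had siFOXA1 2 alone, at percentiles 6.90 to 14.3.

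In the region at the downstream EHF start (34631538 to 34632687), a siFOXA1 2 peak at percentile 8.59 did not reach the promoter window, and a siNS 2 peak at percentile 89.3 covered the start. No region past the 100 kb limit had one of the 4 genes as its nearest gene. The farthest region assigned to EHF lay at 95142 bp and had a siNS 2 peak alone, at percentile 9.26.

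ELF5 (chromosome 11, 34478791 to 34513794, minus strand) is the neighbour of EHF, 107299 bp away and on the opposite strand, so that the intervening sequence lies upstream of both genes. It had 1 region with peaks of all 4 libraries, in that intervening sequence 23823 bp upstream of ELF5 and 82895 bp from EHF (34537617 to 34538198). The peaks stood at percentiles 53.9 and 66.8 in siFOXA1 1 and 2, and at 66.2 and 97.5 in siNS 1 and 2, so the groups overlapped. The other 3 ELF5 regions each had a peak of 1 siNS library, at percentiles of 36.1 or lower. No siFOXA1 peak lay on the gene itself. Without siNS 1, 1 of 3 control regions was kept, and without siNS 2, 1 of 2.

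Where all 4 libraries had a peak, the siFOXA1 peaks lay within the siNS peaks and were narrower. In each of the 10 such regions both siFOXA1 peaks fell inside a siNS peak, as they did in 71.1% of the 2602 regions of this kind. The mean siFOXA1 width was 0.249 to 0.802 times the mean siNS width over the 10 regions, against a median of 0.579 and quartiles of 0.398 and 0.818 over all 2602. The lowest ratio was at the 3′ end of ELF3, with 490 bp in siFOXA1 and 1968 bp in siNS, and the highest at ELF5, with 348 and 434 bp. Both siFOXA1 peaks were narrower than both siNS peaks in 9 of the 10, the ELF5 region being the exception, and in 65.1% of the 2602. Group centres were 6.75 to 306 bp apart, against a median of 91.8 bp. Over whole lists the median peak width was 336 and 347 bp in siFOXA1, against 419 and 446 bp in siNS. The part of depth in these widths was not tested.

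Strong control regions were kept more often across the genome, and most siNS consensus regions of the 4 genes were strong. In 10 bins by mean siNS percentile, 3.52% of the weakest and 58.3% of the strongest regions were kept. In the strongest bin lay 5 of the 6 ELF3 regions, 4 of the 9 SPDEF regions and both EHF regions, and each of these was kept. Adding up the kept shares of the bins that the regions fell in gave 3.11 for ELF3, where 6 were kept, 3.32 for SPDEF, where 5 were kept, and 7.79 for all 4 genes, where 14 were kept. With bins divided by distance to a gene end (1 kb), the sums were 3.21, 3.17 and 8.08. These sums give all regions of a bin the same share. The strongest bin began at a mean siNS percentile of 92.6, and the bin below it kept 26.9%. Its SPDEF regions stood at 97.3 to 99.7, and its ELF3 regions at 98.6 or above apart from 1 at 92.7. Its EHF regions stood at 93.0 and 93.7. How the kept share changes within this bin was not tested, so the sums may be too low for ELF3 and SPDEF. Regions of 1 gene share a locus and are not replicates, and the genes were chosen by their peaks in these lists. The sums and counts are therefore a description and carry no test.

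**Figure D4:**
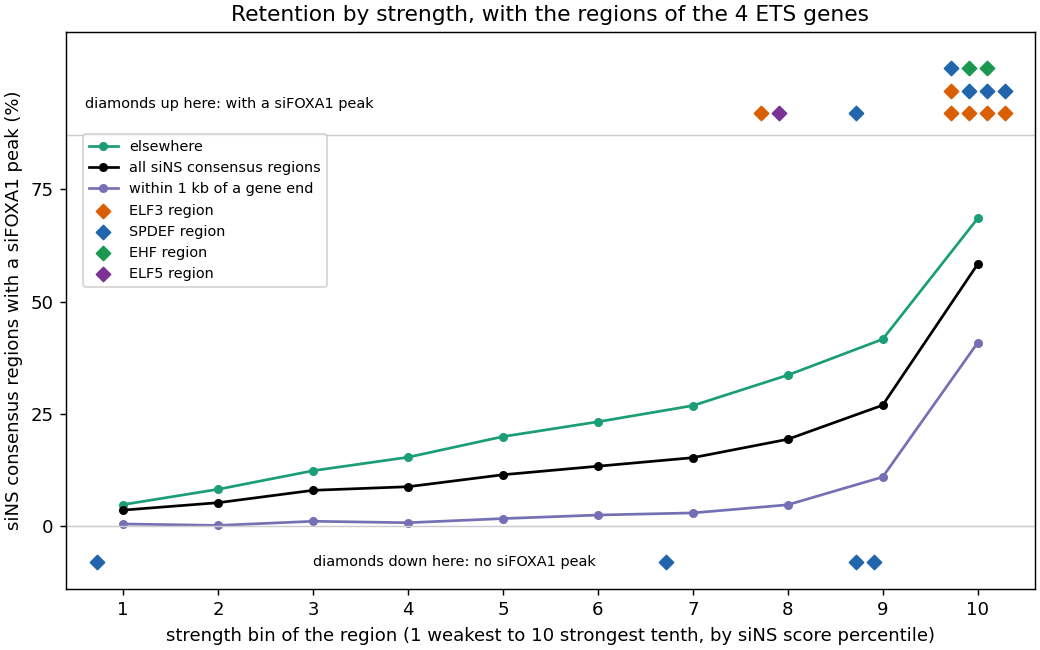
Share of siNS consensus regions with a siFOXA1 peak (y, percent) by strength bin (x, 10 bins of equal size from weakest to strongest by mean siNS score percentile), for all regions, those within 1 kb of a gene end and the others. Diamonds are the 18 regions of the 4 genes, at the top where kept and at the bottom where not. All 11 in the strongest bin are kept, and the 4 that are not belong to SPDEF.

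The 12 motifs were searched on both strands of the 5 promoter windows of the 4 genes, with positions counted from the start (1 is the first transcribed base). Forkhead motifs were TGTTTAC or TATTTAC or TGTTTGC, found in 3.42%, 2.67% and 3.89% of all 35116 RefSeq windows. TATTTAC occurs at -49 to -43 in SPDEF on the reverse strand, directly before an ETS motif AGGAAG at -42 to -37. AGGAAG, found in 33.6% of windows, occurs again in SPDEF at 22 to 27 on the reverse strand and in ELF5 at -110 to -105. TGTTTAC occurs in the downstream EHF window at -196 to -190, and in ELF5 at -193 to -187 on the reverse strand. The ELF3 window, with a siFOXA1 peak in both libraries, holds none of the 3 forkhead motifs and no AGGAAG or CCGGAAG, an ETS motif found in 10.3% of windows. Its only match is CACGNG, a motif of HES repressors found in 30.5%, at -239 to -234, and the upstream EHF window has one at -226 to -221. AGATAA for GATA factors, in 10.3% of windows, occurs in the downstream EHF window at -236 to -231. TGTGGTT for RUNX factors, in 4.27%, occurs in the upstream EHF window at -187 to -181. None of the 5 windows matches AACCNGTT for grainyhead factors (1.73% of windows), TGANTCA for AP-1 (7.71%), GCCNNNGGC for AP-2 (23.2%) or CTTTGAA for TCF/LEF (4.43%). A match is a string of letters and does not show binding.

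The other 24 ETS genes were close to all protein-coding genes in the share of control regions kept. A siNS consensus region was assigned to 19 of them (79.2%), against 61.6% of protein-coding genes, and a siFOXA1 consensus region to 7 (29.2%), against 19.4%. Of their 34 siNS consensus regions 6 were kept, or 17.6%. The share was 16.1% of those assigned to any protein-coding gene and 17.0% of all siNS consensus regions. Their median was 1 siNS consensus region per gene, as over all protein-coding genes. ETS2, a widely expressed factor downstream of Ras signalling, had 4 regions with none kept, and ELF4, a factor of lymphoid cells, had 3 with none kept. ETV3, a repressor, kept 2 of 3, and ETV6, also a repressor, kept 1 of 3. ETV3, ETV6 and ERG, a factor of endothelial cells, had 2 siFOXA1 consensus regions each. A promoter window was given for 18 of the 24. Both siFOXA1 libraries had a peak on a window of 0 of these genes, and both siNS libraries on a window of 11. Counted by window and not by gene, the shares over all windows were 0.595% and 47.5%. A gene can have more than 1 window, so the counts and shares are not like for like.

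Of 10 genes known as targets of these factors in human or mouse cells, 6 had a siNS consensus region, against 61.6% of protein-coding genes, and 2 a siFOXA1 consensus region, against 19.4%. These shares are near those of all genes. CREB3L1, a secretory pathway factor downstream of SPDEF, kept 1 of 4. CLDN7, a tight junction gene, had 2 with none kept. TGFBR2 was assigned no siNS consensus region, although peaks of both siNS libraries overlapped its promoter. FOXA3, CREB3L4, TFF3 and KLK3 had 1 each with none kept. CSN2, the beta-casein gene that ELF5 activates in mouse, had a siFOXA1 consensus region with no siNS peak.

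The genes whose peak numbers were most like those of ELF3 were TRAM2, EML6 and CDYL2, by the summed difference in peak number over the 4 libraries, which was 2 for each. TRAM2, a translocon protein gene, kept 3 of 5 siNS consensus regions, EML6 2 of 3 and CDYL2, a chromodomain protein gene, 4 of 6. For SPDEF they were ZBTB16, a zinc finger repressor, EDN2, an endothelin gene, and PDE10A, a phosphodiesterase gene, again with a difference of 2. ZBTB16 kept 3 of 7, EDN2 6 of 10 and PDE10A 2 of 7.

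The flanking genes shared the pattern in part. RNPEP, an aminopeptidase gene 4444 bp from ELF3, kept 1 of 2 siNS consensus regions. That region (202007795 to 202008744) had peaks of all 4 libraries and lay 1843 bp upstream of ELF3, nearer to RNPEP by the rule. GPR37L1, on the other side, kept 3 of 8. At SPDEF, PACSIN1, 2579 bp away, kept none of 2, and ILRUN none of 1. A region 1779 bp from the SPDEF end, with both siNS libraries only (34535674 to 34536023), fell to PACSIN1. Beside ELF5, CAT, the catalase gene, kept 1 of 2. It also had a region 23748 bp from ELF5 with both siFOXA1 and neither siNS library (34454718 to 34455043). APIP, past EHF, kept none of 1.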

How the data were processed

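Per the labels, TLE3 ChIP-seq was done in MDA-MB-453 cells, with 2 siFOXA1, 2 siNS and 2 input libraries. The inputs, whose labels name MDA-MB-454, were not analysed here. Each ChIP library has a peak list in which the authors give every peak a score, whose definition is not stated. The submitters' processing notes name Trim Galore, BWA 0.7.5a, SAMtools, MACS2 and hg38. Settings, the peak threshold and how inputs were used were not given in the sources used here. Depth is unknown, and list length can move with depth or immunoprecipitation yield. The list of siFOXA1 2 is named with a different number than its title, which was followed.

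Peaks outside chromosomes 1 to 22, X and Y were left out and the others merged at an overlap of at least 1 bp. Genes, starts and promoter sequences came from RefSeq tables on GRCh38.p14 (20037 protein-coding genes), whose chromosomes are those of hg38. All 4 genes matched by symbol. The tables give no exons or introns. Overlapping genes were separated by the nearer end. Percentile is the share of a list with a lower score. Genes named follow a rule: the 4 genes, their flanking genes, the 3 other ETS genes with the most consensus regions of either group, targets with a consensus region and the 3 genes most like ELF3 and SPDEF. TGFBR2 was named besides these for its promoter peaks. Members and lists were chosen with earlier results of these data known. No test was run. At most 1 peak had the same start and end in any pair of lists.

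Merging was tested on simulated data (3000 of 3000 regions recovered) and gave the 72272 regions of bedtools 2.31.1. Python 3.11.15, numpy 2.4.6, scipy 1.17.1 and matplotlib 3.10.9 were used.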

Additional observations from a re-analysis of the deposited data

How the results depend on the processing

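The kept share was 77.8% of 18 siNS consensus regions. It was 64.7 to 86.7% under the 6 other settings tried, which leave 12 to 18 regions, and 53.8 to 72.2% on leaving out each library, with 18 to 37 regions. Across the genome it was 32.3% with lists of equal length and 9.55% without siNS 2. The siFOXA1 consensus regions with a siNS peak were 71.4 to 100% on leaving out a library, lowest without siNS 2.

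Counts depended on settings that remove peaks or sequence by construction. When peaks below their list's median score were dropped, there were 25 regions, 11 and 13 siFOXA1 peaks, 17 and 23 siNS peaks and 12 other ETS genes with a siNS consensus region, in place of 47, 17 and 23, 26 and 37, and 19. With lists of equal length there were 28 regions, 16 and 21 siNS peaks and 9 other ETS genes. Within 10 kb there were 31 regions, 9 and 13 siFOXA1 peaks and 23 siNS 2 peaks. Leaving out a library gave 38 to 47 regions and 19 to 23 other ETS genes. With peaks widened by 250 bp, SPDEF regions fused to 9 from 16. No paired analysis was run, because every result is a count or share with no fit to which a replicate block could be added.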
